A study of Sus scrofa with 2 samples.

Results

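Chemokines, interleukins and the receptors of both were followed in siRNA-treated porcine (Sus scrofa) granulosa cells, the somatic cells that line the ovarian follicle and surround the oocyte. Members were chosen by a rule on names, set with earlier results of these data known. The rule took every mRNA entry whose symbol starts with CCL, CXCL, CX3CL, CCR or CXCR and a digit, or with IL and a digit. This gave 109 of the 34570 genes listed, of which 27 are chemokines counting IL8, 15 are chemokine receptors, and the remaining 67 are interleukins, interleukin receptors and genes named after them. Cells from Chinese Erhualian pigs received SMAD4-siRNA, a small interfering RNA against the mediator shared by TGF-beta, activin and BMP signalling, or NC-siRNA, the control siRNA. Each group was 1 library of total RNA pooled from 3 individuals. The labels do not say whether the same animals gave both pools, so animal, transfection and siRNA cannot be told apart, there is no replicate check of any difference, and no test between the conditions was possible.

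Chemokines are small secreted proteins that guide leukocytes along concentration gradients through G protein-coupled receptors. They are grouped by the spacing of their first cysteines into CC, CXC and CX3C types. Interleukins are cytokines that act through multi-chain receptors, most of which signal through JAK kinases and STAT factors, while the IL-1 and IL-17 families use adaptors that lead to NF-kB. In the ovary, these signals are known for drawing leukocytes to the follicle around ovulation and to the young corpus luteum.

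Levels are the deposited values, named as RPKM but scaled by the upper quartile of each library in place of its total reads. They are per length of transcript and can be set side by side between genes. Whole reads were recovered from these values and are lower bounds, so each read count given is the smallest that fits. A ratio is the SMAD4 siRNA value over the NC siRNA value, and the range in parentheses after it is its 95% counting interval (exact Clopper-Pearson, on how a gene's reads divide between the libraries). Such intervals cover counting error only, not the spread between animals or cultures, and they treat every read as a separate molecule although no molecular identifiers are stated. They rest on the smallest reads, as do all classes by number of reads. Where the true reads are a multiple of these, an interval is too wide, and a call that it includes 1 may not hold. A gene was called measured at a mean level of at least 1 over both libraries, and was counted as 2-fold apart where the log2 ratio of (value + 1) was 1 or more, or -1 or less, a scale that understates changes of low genes.

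The libraries held at least 17394711 reads on genes for SMAD4 siRNA and 17680952 for NC siRNA. SMAD4 itself had a level of 47.9 in the SMAD4 siRNA library and 85.0 in the NC siRNA library, a ratio of 0.563 (0.497 to 0.639). The deposited values summed to 12999070 for SMAD4 siRNA and 14109570 for NC siRNA, so rescaling both to the same sum multiplies every ratio by 1.09. Of 10 granulosa markers, 7 had reads, among them GATA4 with at least 2230 and 1958 reads and FOXL2 with 162 and 133, in SMAD4 siRNA and NC siRNA. The defining markers CYP19A1, AMH and INHBB were listed at 0 in both libraries, and FSHR had 7 and 9 reads. Of 8 theca and stroma markers 5 had reads, with a summed level of 44862 in SMAD4 siRNA and 53281 in NC siRNA, nearly all collagen, while the theca genes CYP17A1, LHCGR and INSL3 were listed at 0. Of 6 endothelial markers found 5 had reads, with a summed level of 352 in SMAD4 siRNA and 452 in NC siRNA. Nearly all of it was PECAM1, with 240 and 275, and ERG, with 97.2 and 167. VWF, KDR and CLDN5 had at most 13 reads in either library, and TEK was listed at 0. The part of such cells in the results was not tested.

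Of the 109 members, 63 had reads in at least 1 library, 51 were measured and 38 had at least 20 reads over both libraries. The share with reads, 57.8%, lay below the 67.2% of all mRNA entries. The other 46 members were listed at 0 in both libraries. Among these were IL8, the neutrophil chemokine now named CXCL8, the anti-inflammatory cytokine IL10 and the T cell cytokines IL2 and IL4. RAC1, which nearly every cell uses, was also listed at 0, so a listed 0 says nothing here about expression. In all, member reads made up 0.181% of the reads on genes in the SMAD4 siRNA library and 0.161% in the NC siRNA library.

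Measured members did not move as a block. At least 2-fold higher in the SMAD4 siRNA library were 5 of 51 (9.80%), namely CCL5, CXCL10, CXCL2, IL7 and IL18BP, beside 7.17% of the 16609 genes measured. The interval of IL7 among these included 1. At least 2-fold lower were also 5 of 51 (9.80%), beside 6.68% of all genes measured. All of these lower members, CCL4, CCL14, CCL21, CCL23 and IL1R2, had under 20 reads and an interval that included 1. With at least 20 reads, 5 of 38 members were 2-fold higher and 0 were 2-fold lower, beside 2.83% and 2.46% of all such genes. With at least 100 reads, 2 of 23 were 2-fold higher and 0 lower, beside 1.32% and 1.12%. The median log2 ratio of the 51 members was 0.04, or 1.03-fold, beside -0.05 for all genes measured.

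By counting intervals, 10 of the 63 members with reads (15.9%) lay wholly above 1, beside 11.5% of all genes with reads. Wholly below 1 were 5 of 63 (7.94%), beside 19.4% of all genes. Among genes with at least 100 reads, where intervals are narrow, 8 of 23 members (34.8%) lay above 1, beside 17.6% of all such genes. In the same class 4 of 23 members (17.4%) lay below 1, beside 32.4% of all such genes. After rescaling to the same sum, 14 members lay above 1, beside 19.2% of all genes with reads, and CCL11 was the 1 member below, beside 12.1%.

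**Figure D1:**
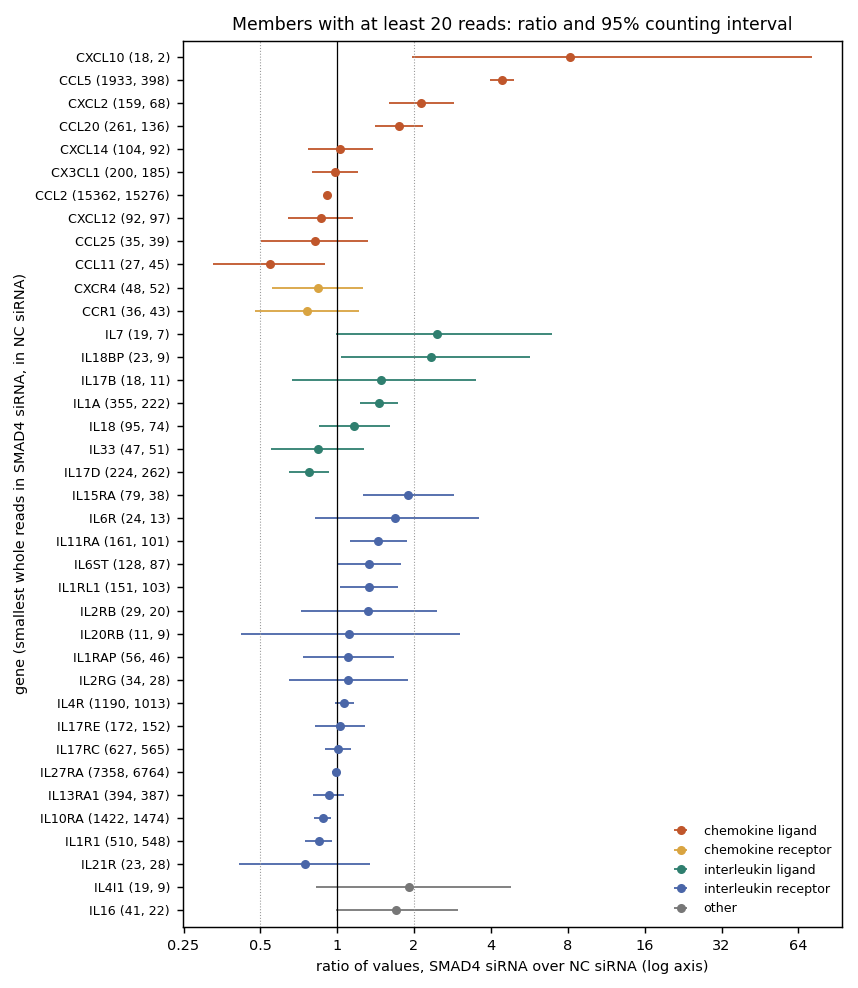
Ratio of the value in SMAD4 siRNA over NC siRNA (log axis) for the 38 members with at least 20 reads, with the 95% counting interval as a bar and the reads of both libraries beside each name. CXCL10 (8.17) and CCL5 (4.41) stand at the right. Between 0.800 and 1.25 lie 10 of 17 interleukin receptors and 5 of 10 chemokine ligands.

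The CC chemokines were led in level by CCL2, the monocyte attractant also called MCP-1. CCL2 had a level of 21041 in the SMAD4 siRNA library and 23039 in the NC siRNA library, from at least 15362 and 15276 reads. It ranked 86th and 84th among the 14707 and 14678 mRNA entries above 0 in SMAD4 siRNA and NC siRNA. CCL2 alone held 48.7% of all member reads in SMAD4 siRNA and 53.5% in NC siRNA. Its ratio of 0.913 (0.893 to 0.934) became 0.991 (0.969 to 1.01) after rescaling, so the small difference depends on the scaling.

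CCL5, known as RANTES, attracts T cells and monocytes through CCR1 and CCR3, and is induced by NF-kB and by interferon signalling. Its level was 2651 in SMAD4 siRNA and 601 in NC siRNA, from at least 1933 and 398 reads. In rank among mRNA entries it stood 618th in the SMAD4 siRNA library and 2425th in the NC siRNA library. The ratio of 4.41 (3.96 to 4.93) was the highest among the members with at least 100 reads.

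CCL20, the ligand of CCR6, had a level of 421 in SMAD4 siRNA and 241 in NC siRNA, from 261 and 136 reads. Its ratio was 1.74 (1.41 to 2.16), higher but short of 2-fold. CCL11, the eosinophil attractant eotaxin, was on the lower side, with a level of 48.4 in SMAD4 siRNA and 88.9 in NC siRNA. Its 27 and 45 reads gave a ratio of 0.545 (0.325 to 0.897). CCL25, a ligand of CCR9, had levels of 14.0 in SMAD4 siRNA and 17.1 in NC siRNA, and its ratio of 0.815 (0.501 to 1.32) did not leave 1.

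The remaining CC chemokines with reads had smallest read counts too low to place them. CCL23 had 2 reads in SMAD4 siRNA and 6 in NC siRNA, and CCL4, a macrophage inflammatory protein, had 1 and 4. CCL8, CCL14, CCL21 and CCL22 had 0 reads in SMAD4 siRNA and 1 read each in NC siRNA. Every interval among these 6 included 1. CCL1, CCL3L1, CCL16, CCL17, CCL19, CCL27 and CCL28 were listed at 0 in both libraries. The median log2 ratio of the 9 measured CC chemokines, -0.86, was that of CCL11, with CCL4, CCL14, CCL21 and CCL23 below it. The summed level of all CC chemokines was 24187 in SMAD4 siRNA and 24038 in NC siRNA.

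Among the CXC chemokines, CXCL2 and CXCL10 were higher in the SMAD4 siRNA library. CXCL2, a neutrophil attractant that acts through CXCR2, had a level of 142 in SMAD4 siRNA and 66.7 in NC siRNA, from 159 and 68 reads, a ratio of 2.12 (1.59 to 2.86). CXCL10, the interferon-induced ligand of CXCR3, had a level of 20.7 in SMAD4 siRNA and 2.53 in NC siRNA. That ratio of 8.17 rests on 18 and 2 reads, and its interval ran from 1.96 to 72.6. The other CXCR3 ligands had low smallest read counts, which need not be their true depth. CXCL11, which lies next to CXCL10 in assembly Sscrofa11.1, had 2 reads in SMAD4 siRNA and 0 in NC siRNA. CXCL9 had 1 read in each.

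The other CXC and CX3C chemokines with at least 20 reads had intervals that included 1. CX3CL1, the membrane-anchored fractalkine, had 63.3 in SMAD4 siRNA and 64.5 in NC siRNA, a ratio of 0.982 (0.800 to 1.21). CXCL14 had 61.7 in SMAD4 siRNA and 60.1 in NC siRNA, a ratio of 1.03 (0.768 to 1.37). CXCL12, the stromal ligand of CXCR4, had 25.9 in SMAD4 siRNA and 30.1 in NC siRNA, a ratio of 0.861 (0.640 to 1.16). CXCL13 and IL8 were listed at 0.

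A further CXC chemokine falls outside the name pattern. AMCF-II, the porcine alveolar macrophage-derived chemotactic factor that the reference table also names CXCL6, had a level of 427 in SMAD4 siRNA and 152 in NC siRNA. From 623 and 202 reads its ratio was 2.80 (2.39 to 3.30). CXC chemokines of this kind have close copies in the genome, and the sources used here do not say how shared reads were assigned, so the values of CXCL2 and AMCF-II are uncertain to that extent.

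**Figure D2:**
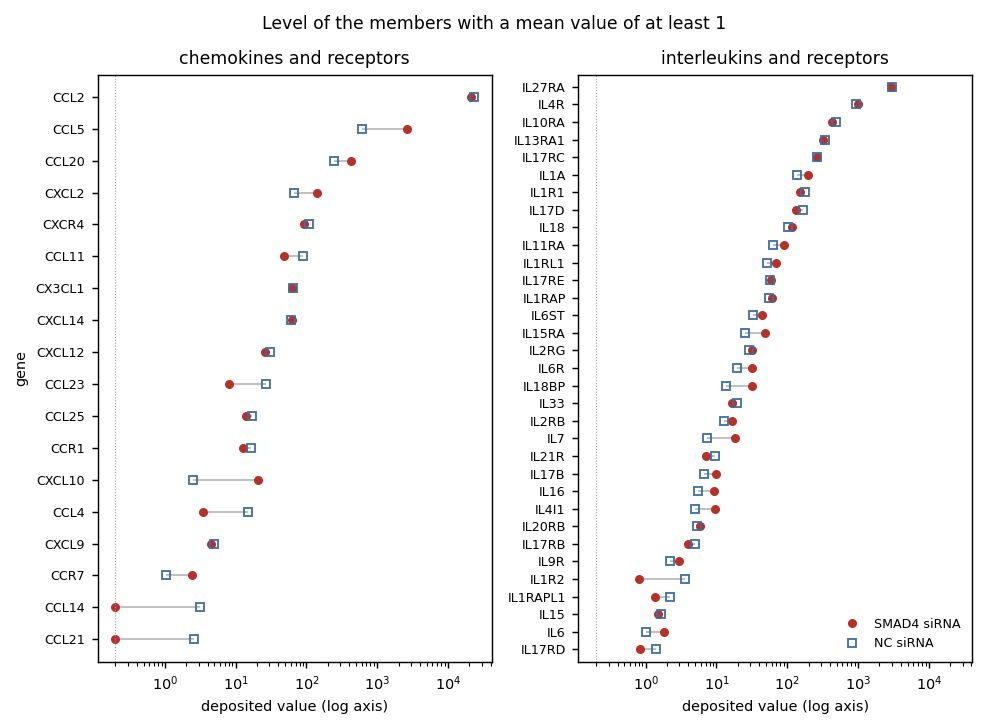
Deposited value (log axis) of the 51 measured members in the SMAD4 siRNA library (filled circles) and the NC siRNA library (open squares), ordered by mean level; a value of 0 is drawn on the dotted line. CCL2 (21041 and 23039) and IL27RA (2952 and 2989) top their panels with nearly equal values, whereas CCL5 is at 2651 and 601.

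Of 15 chemokine receptors, 6 had reads, and CXCR4 and CCR1 were those with at least 20. CXCR4, the CXCL12 receptor, had a level of 92.2 in SMAD4 siRNA and 110.0 in NC siRNA, a ratio of 0.838 (0.554 to 1.27). CCR1, a receptor for CCL5 and other CC chemokines, had 12.6 in SMAD4 siRNA and 16.5 in NC siRNA, a ratio of 0.760 (0.474 to 1.21). CCR7 had 5 and 2 reads, CCR10 had 1 and 0, and CXCR5 had 0 and 4, in SMAD4 siRNA and NC siRNA. CCR2, the receptor of CCL2, CXCR2, that of CXCL2, CXCR3, that of CXCL10, and CCR6, that of CCL20, were listed at 0 in both libraries. As a listed 0 is uninformative here, whether these receptors were expressed cannot be read from the tables.

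Several of these receptors are also leukocyte genes, so leukocyte markers were read beside them. Of 16 such markers found, 13 had reads. Their summed level was 636 in SMAD4 siRNA and 657 in NC siRNA, nearly all of it CD14, with 566 and 579. Without CD14 the sum was 69.9 in SMAD4 siRNA and 78.0 in NC siRNA. The highest of the rest was SPI1, with 37.6 in SMAD4 siRNA and 39.8 in NC siRNA on 26 and 25 reads. Of the 13, 1 (7.69%) had an interval below 1 and 0 above, beside 19.4% and 11.5% of all genes with reads. That marker was CD79A, a chain of the B cell receptor, with a level of 4.57 in SMAD4 siRNA and 17.1 in NC siRNA. Its ratio was 0.267 (0.0771 to 0.754) on 5 and 17 reads. PTPRC, the pan-leukocyte marker CD45, had 2 and 1 reads. CD163, CD3E and MS4A1 were listed at 0 in both, which is uninformative here. In bulk RNA, fewer cells of a type and less RNA per cell cannot be told apart.

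In the IL-1 family, IL1A was the ligand with most reads. IL1A, which is made as an active precursor and released on cell damage, had a level of 199 in SMAD4 siRNA and 137 in NC siRNA. Its 355 and 222 reads gave a ratio of 1.45 (1.22 to 1.73). IL1B, its neighbour in assembly Sscrofa11.1 and the ligand cleaved by caspase-1, had 1 read in SMAD4 siRNA and 0 in NC siRNA. IL18, another caspase-1 substrate, had levels of 118 and 101 in SMAD4 siRNA and NC siRNA, a ratio of 1.17 (0.851 to 1.60). IL18BP, the secreted protein that neutralises IL-18 and is known as interferon-induced, had 31.4 in SMAD4 siRNA and 13.5 in NC siRNA. Its 23 and 9 reads put the ratio of 2.32 (1.03 to 5.70) just clear of 1. IL33, a nuclear alarmin, had 16.4 in SMAD4 siRNA and 19.6 in NC siRNA, a ratio of 0.837 (0.551 to 1.27).

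Both chains of the IL-1 receptor had reads. IL1R1, the signalling receptor, had a level of 149 in SMAD4 siRNA and 176 in NC siRNA, a ratio of 0.845 (0.748 to 0.955) that became 0.917 (0.812 to 1.04) after rescaling. IL1RAP, the accessory chain it shares with the IL-33 receptor, had 60.5 in SMAD4 siRNA and 54.7 in NC siRNA, a ratio of 1.11 (0.735 to 1.67). IL1RL1, the IL-33 receptor ST2, was slightly higher, with 69.7 in SMAD4 siRNA, 52.3 in NC siRNA and a ratio of 1.33 (1.03 to 1.73). The decoy receptor IL1R2 had 1 read in SMAD4 siRNA and 4 in NC siRNA. IL1RAPL1 had 2 and 3, IL18RAP had 0 and 1, and IL1RAPL2 was listed at 0.

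The highest interleukin receptor was IL27RA, which pairs with IL6ST to bind IL-27. IL27RA had a level of 2952 in SMAD4 siRNA and 2989 in NC siRNA, above 96.2% of the mRNA entries with reads in both cases. With at least 7358 and 6764 reads, its ratio was 0.988 (0.956 to 1.02), and 1.07 (1.04 to 1.11) after rescaling. The IL-27 subunit gene IL27 was listed at 0, and the other subunit gene, EBI3, had 6 reads in each library.

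Receptor chains for IL-6 and IL-11 were on the higher side. IL6ST, which encodes gp130, the shared signalling chain of the IL-6 family, had a level of 43.6 in SMAD4 siRNA and 32.7 in NC siRNA, a ratio of 1.34 (1.01 to 1.78). IL11RA, the IL-11 binding chain, had 91.0 in SMAD4 siRNA and 62.9 in NC siRNA, a ratio of 1.45 (1.12 to 1.88). IL6R, the IL-6 binding chain, had 32.2 in SMAD4 siRNA and 19.2 in NC siRNA. On smallest reads of 24 and 13, the interval of its ratio of 1.68 (0.820 to 3.59) included 1. IL6 itself had 2 reads in SMAD4 siRNA and 1 in NC siRNA. IL23RA, listed under an older name of IL23R, had 1 and 3 reads, and IL12A, IL12B, IL12RB1, IL12RB2, IL31 and IL31RA were listed at 0.

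Receptors of the common gamma chain family, whose cytokines sustain lymphocytes, included IL4R as the second highest interleukin receptor. IL4R, the chain that binds IL-4 and, with IL13RA1, IL-13, had a level of 1000.2 in SMAD4 siRNA and 938 in NC siRNA, a ratio of 1.07 (0.980 to 1.16). IL13RA1 had 316 in SMAD4 siRNA and 342 in NC siRNA, a ratio of 0.925 (0.802 to 1.07). IL13, IL13RA1 and IL13RA2 were counted with this family by grouping alone, not as users of the common gamma chain. IL15RA, which presents IL-15 to neighbouring cells, was the member of this family that stood out. Its level was 48.2 in SMAD4 siRNA and 25.5 in NC siRNA, and its 79 and 38 reads gave a ratio of 1.89 (1.27 to 2.86).

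The remaining receptors counted with this family had intervals that included 1. IL2RG, the common gamma chain, had 31.3 in SMAD4 siRNA and 28.4 in NC siRNA, a ratio of 1.10 (0.649 to 1.89). IL2RB, the chain shared by IL-2 and IL-15, had a ratio of 1.32 (0.720 to 2.46) on 29 and 20 reads, and IL21R had 0.746 (0.410 to 1.34) on 23 and 28. IL9R, IL7R and IL13RA2 had at most 3 reads in either library, and IL2RA was listed at 0. Of the ligands, IL7, a growth factor of lymphocytes made by stromal cells, had 18.3 in SMAD4 siRNA and 7.43 in NC siRNA. Its 19 and 7 reads gave a ratio of 2.47 (0.992 to 6.94), whose interval touched 1. IL15 had 1 read in each library, and IL2, IL4, IL9, IL13 and IL21 were listed at 0.

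In the IL-10 family, IL10RA, the IL-10 binding chain, had a level of 432 in SMAD4 siRNA and 493 in NC siRNA, from at least 1422 and 1474 reads. Its ratio of 0.876 (0.814 to 0.943) became 0.951 (0.884 to 1.02) after rescaling. IL20RB had a ratio of 1.11 (0.418 to 3.03) on 11 and 9 reads, and IL20RA had 1 and 0 reads. IL10RB, the chain that IL-10 also needs, was listed at 0, as were IL22RA1, IL22RA2 and all 6 ligands of the family.

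The IL-17 family was represented by receptors, by IL17D and, on fewer reads, by IL17B. IL17RC, which pairs with IL17RA to bind IL-17A and IL-17F, had a level of 267 in SMAD4 siRNA and 265 in NC siRNA, a ratio of 1.01 (0.898 to 1.13). Its neighbour IL17RE, the IL-17C receptor, had 59.0 in SMAD4 siRNA and 57.4 in NC siRNA, a ratio of 1.03 (0.821 to 1.29). IL17RA is not under that symbol in the tables but has an entry that the reference table names, with levels of 700.0 in SMAD4 siRNA and 726 in NC siRNA and a ratio of 0.965 (0.891 to 1.04). IL17D had 131 in SMAD4 siRNA and 169 in NC siRNA, a ratio of 0.776 (0.647 to 0.932) that became 0.843 (0.702 to 1.01) after rescaling. IL17B had a ratio of 1.49 (0.665 to 3.48) on 18 and 11 reads. A second entry that the reference table names IL17B had 1 read in SMAD4 siRNA and 0 in NC siRNA. IL17RB had 8 and 9 reads and IL17RD had 2 and 3, while IL17A, IL17F, IL25 and IL17REL were listed at 0.

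The name pattern also takes in genes that are not interleukins of these families. IL16, a T cell attractant released from a larger precursor, had 9.24 in SMAD4 siRNA and 5.46 in NC siRNA, a ratio of 1.69 (0.985 to 2.98). IL4I1, a secreted amino acid oxidase named after its induction by IL-4, had 9.46 in SMAD4 siRNA and 4.94 in NC siRNA, a ratio of 1.92 (0.827 to 4.81). IL5RA was listed at 0. By contrast, IL34, a ligand of the macrophage receptor CSF1R, carries no interleukin symbol in the tables and was found through the reference table. It had a level of 60.6 in SMAD4 siRNA and 29.0 in NC siRNA, a ratio of 2.09 (0.956 to 4.92) on 23 and 10 reads.

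Many of these genes lie side by side in the genome, as families that arose by duplication. In assembly Sscrofa11.1, 27 pairs of members are next to each other, and 3 pairs have at least 20 reads for both genes. Their ratios were 0.545 for CCL11 and 0.913 for CCL2, 1.03 for IL17RE and 1.01 for IL17RC, and 0.746 for IL21R and 1.07 for IL4R. Whether reads were counted by strand is not stated, so reads of neighbours that overlap could not be separated.

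**Figure D3:**
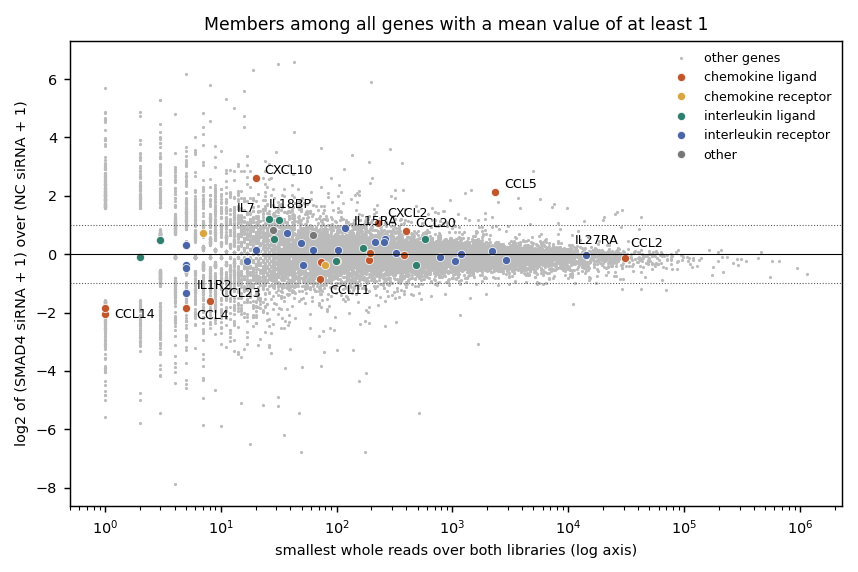
Log2 ratio of (value + 1), SMAD4 siRNA over NC siRNA, against the smallest whole reads over both libraries (log axis) for the 16609 genes measured, with the members in colour and dotted lines at 2-fold. CCL5 lies apart from most genes of its depth, while the members below the lower line have under 20 reads.

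Ratios covered a narrower range among interleukin receptors than among chemokine ligands. The 17 interleukin receptors with at least 20 reads had ratios between 0.746 and 1.89 with a median of 1.10. Of these, 10 lay between 0.800 and 1.25, with 4 intervals above 1 and 2 below. The 10 chemokine ligands with at least 20 reads ranged from 0.545 for CCL11 to 8.17 for CXCL10, around a median of 1.0. Of these ligands, 5 lay between 0.800 and 1.25, again with 4 intervals above 1 and 2 below. Among all genes with at least 20 reads, 15.6% of intervals lay above 1 and 26.6% below. Both ends of the ligand range rest on few reads, 27 and 45 for CCL11 and 18 and 2 for CXCL10, in SMAD4 siRNA and NC siRNA. Summed over all chemokine ligands, the level was 24506 in SMAD4 siRNA and 24266 in NC siRNA, a near balance that CCL2 dominates. Without CCL2 the sum was 3465 in SMAD4 siRNA and 1227 in NC siRNA, a ratio of 2.82 carried mostly by CCL5.

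Signalling genes that sit below these receptors were mixed. Counts of their intervals are to be read beside the 11.5% of all genes with reads that lay above 1 and the 19.4% below, or 19.2% and 12.1% after rescaling, and the small medians of the 3 lists that follow are within the 0.12 that rescaling adds to a log2 ratio. Of 25 genes of IL-1 and Toll receptor signalling, all had reads and were measured, 3 (12.0%) had an interval above 1 and 8 (32%) below, and the median log2 ratio was -0.04. After rescaling the balance turned, with 8 above and 4 below, so it depends on the scaling. IRAK1, a kinase of the receptor complex, had a ratio of 1.20 (1.12 to 1.30), and ECSIT, a TRAF6 partner, had 1.15 (1.05 to 1.25). CASP1, the protease that matures IL-1 beta and IL-18, had 4.84 (1.39 to 25.9) on 16 and 3 reads, and IRAK1BP1 had 1.54 (0.897 to 2.70). At the lower end were PYCARD, the inflammasome adaptor ASC, at 0.560 (0.400 to 0.778), TRAF6, the ubiquitin ligase that activates TAK1, at 0.613 (0.499 to 0.752), and PELI3, a Pellino ubiquitin ligase, at 0.679 (0.484 to 0.946), whose interval included 1 after rescaling.

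For JAK-STAT signalling, 22 of 26 genes were measured. Of the 23 with reads, 4 (17.4%) had an interval above 1 and 6 (26.1%) below, or 5 and 4 after rescaling, and the median log2 ratio was -0.01. JAK2 had a ratio of 1.99 (1.07 to 3.84) on 35 and 16 reads, STAT5A, a factor downstream of the gamma chain cytokines, had 1.60 (1.29 to 2.0), and SOCS4 had 1.42 (0.881 to 2.33). STAT5B, at 1.16 (1.04 to 1.28), and the phosphatase PTPN6, at 1.23 (1.03 to 1.48), were the others above 1. STAT3, the main factor downstream of gp130, was lower, with a level of 1378 in SMAD4 siRNA and 1870 in NC siRNA and a ratio of 0.737 (0.713 to 0.763). JAK1, a kinase bound to gp130 and gamma chain receptors, had 0.727 (0.655 to 0.806), and PIAS1, an inhibitor of STAT factors, had 0.619 (0.299 to 1.25).

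For chemokine receptor signalling, 18 of 23 genes were measured, with a median log2 ratio of -0.11. Of the 19 with reads, 3 (15.8%) had an interval above 1 and 6 (31.6%) below, or 5 and 4 after rescaling. RAC2, a small GTPase best known from blood cells, had a ratio of 2.57 (1.30 to 5.46) on 34 and 12 reads. ADRBK1, a kinase that desensitises receptors, had 1.13 (1.07 to 1.20), and GNAI2, the G protein alpha subunit that chemokine receptors use, 1.06 (1.04 to 1.08). RGS3 had 1.42 (0.951 to 2.13) and PREX1, an activator of Rac, 1.23 (0.958 to 1.58), and both intervals lay above 1 after rescaling. RGS2, which speeds the shut-off of G proteins, was at 0.434 (0.191 to 0.927) on 11 and 23 reads, an interval that ran to 1.01 after rescaling. Next came ELMO1, part of a Rac activator with DOCK proteins, at 0.611 (0.50 to 0.746), and, with an interval that included 1, the beta-arrestin ARRB1 at 0.686 (0.426 to 1.10).

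Related cytokines and receptors with other names were counted in the same way. In the list of other chemokines and receptors 15 of 22 symbols were found, 8 were measured, and of 10 with reads 3 (30.0%) had an interval above 1 and 0 below. Beside AMCF-II these were CCRL2, an atypical receptor that binds chemerin, at 2.15 (1.02 to 4.81), and MIF, a cytokine that can act through CXCR4, at 1.06 (1.02 to 1.11). ACKR3, the atypical CXCL12 receptor, had 1.08 (0.833 to 1.41), CMTM6 had 0.974 (0.850 to 1.12), and CCRL1 had 0.859 (0.525 to 1.40).

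Among cytokines of the IL-6 and IL-3 families with other names, 13 of 16 found were measured, and of 15 with reads 1 (6.67%) had an interval above 1 and 3 (20%) below. CTF1, the gp130 cytokine cardiotrophin 1, had a level of 21.7 in SMAD4 siRNA and 2.18 in NC siRNA, a ratio of 9.99 (2.46 to 87.6) on 22 and 2 reads. LIFR, the LIF receptor, had 1.28 (0.661 to 2.54). Lower were OSMR, the oncostatin M receptor, at 0.792 (0.712 to 0.880), CSF1, the macrophage growth factor, at 0.743 (0.645 to 0.855), and CRLF3 at 0.723 (0.623 to 0.839).

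**Figure D4:**
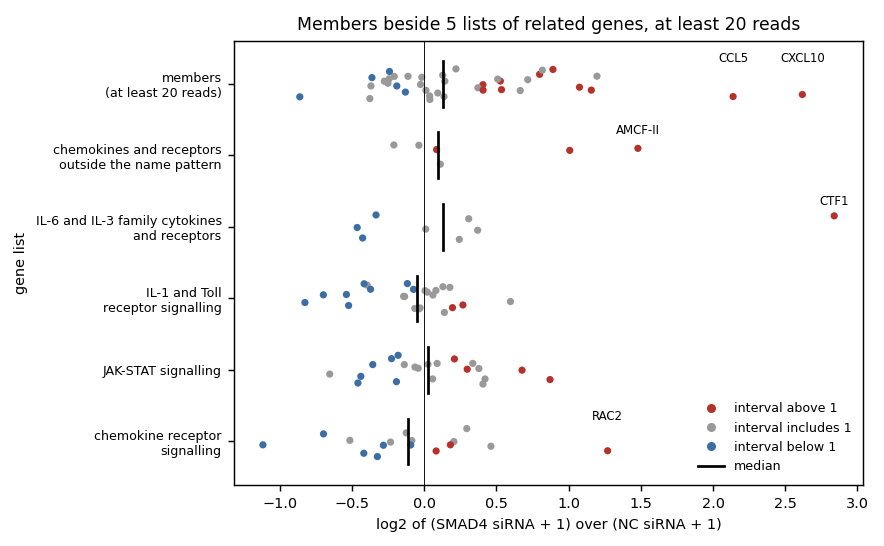
Log2 ratio of (value + 1), SMAD4 siRNA over NC siRNA, for the 38 members and for 5 lists of related genes, at least 20 reads each, coloured by whether the counting interval lies above, across or below 1, with the median of each list as a black line. The medians lie between -0.11 and 0.13, and CCL5, CXCL10, AMCF-II, CTF1 and RAC2 are the points furthest to the right.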

How the data were processed

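Porcine granulosa cell total RNA was sequenced on an Ion Torrent Proton, 1 pooled library per group, per the labels. The authors deposited values named as RPKM with each library's upper quartile, as the file headers and table names give it. The values fit reads per length over 1 divisor per library, with no further term for total reads. The aligner, counter, build and annotation are not stated in the sources used here. With divisors of 980 for SMAD4 siRNA and 890 for NC siRNA, all 18428 genes above 0 gave whole reads at some whole length (longest tried 40000 bases; tolerance 2e-09 relative, 1e-06 absolute), and the smallest solution was kept. For a gene of the median smallest length, 1648 bases, 1.62 reads in SMAD4 siRNA or 1.47 in NC siRNA make a value of 1.

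Log2 ratios used a pseudocount of 1 and a minimum mean value of 1. With 1 library per group no test was made, and counts of members stand beside those over all genes. The steps were tested on simulated data, which cannot show whether the smallest reads are the true reads of these libraries. Members and lists were chosen with earlier results of these data known. Members with at least 20 reads were described in full, and so were up to 3 genes at each end of each other list, by log2 ratio, with at least 20 reads. EBI3, RAC1, CASP1, STAT5B, PTPN6, ADRBK1, GNAI2, IL17RA, IL34 and the markers were named after their values were seen. Some genes that these rules take are not reported here. Of the 109 symbols, 108 matched the Sscrofa11.1 gene table, which gave names and neighbours only. The planned description of promoter motifs was not run, as no sequence was used here. Alternatives were other pseudocounts, minimums, thresholds, centring and rescaling. Python 3.11.15, numpy 2.4.6, pandas 2.3.3, scipy 1.17.1 and matplotlib 3.10.9 were used.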

Additional observations from a re-analysis of the deposited data

How the results depend on the processing

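No paired analysis was possible because each group is 1 pooled library. Minimums of 100 reads, the addition of 5 entries that the reference table names and the scaling of SMAD4 siRNA alone were chosen after seeing the data. Members at least 2-fold higher numbered 5, against 3 with a pseudocount of 5, 2 after rescaling both libraries to the same sum, as for TPM, 11 at 1.5-fold, 2 at 4-fold and 2 with at least 100 reads. Members at least 2-fold lower numbered 5, against 2 with a pseudocount of 5, 2 at a mean value of at least 5, 0 after that rescaling, 0 with at least 20 reads, 1 at 4-fold and 0 with at least 100 reads. Rescaling as for TPM shrinks every value, so the pseudocount and the minimum weigh more and 32 members are measured in place of 51. With SMAD4 siRNA alone scaled to the sum of NC siRNA, 52 members were measured, 7 of them 2-fold higher and 5 lower. That scaling multiplies the ratio of every gene by 1.09, not of members alone. Beyond the main setting, 2-fold shares over all genes are given only for the minimums of 20 and 100 reads. The other 2-fold counts show how calls move with the settings and do not set members apart from other genes. Stricter minimums and thresholds leave fewer genes by construction. Intervals below 1 numbered 5, against 1 after rescaling, where CCL2, IL10RA, IL1R1 and IL17D no longer lay below 1, and IL4R, IL7, IL16 and IL27RA came to lie above it. The ratios themselves of CX3CL1, IL13RA1 and IL27RA passed from below 1 to above it, while the intervals of CX3CL1 and IL13RA1 included 1 before and after. The median log2 ratio stayed between 0.01 and 0.15. Of the 38 members with at least 20 reads, 5 were 2-fold apart, and 0 of these changed direction under other pseudocounts, centring or rescaling. This was fixed in advance. A pseudocount added to both values cannot reverse a ratio, and the shifts of centring and rescaling are far smaller than 2-fold. None of the 25 members under 20 reads had an interval that excluded 1. As these are the smallest reads that fit, whether true depth was that low cannot be told.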
